A study of Homo sapiens with 9 samples.

Results

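Zinc is held, sensed and moved in human cells by the 10 genes described here: the metallothioneins MT1E, MT1F, MT1X and MT2A, the zinc-sensing transcription factor MTF1, and the zinc exporters SLC30A1, SLC30A5, SLC30A6, SLC30A7 and SLC30A9. They were chosen by name and function, and each was found in the deposited tables by the Ensembl identifier that carries its GENCODE 29 symbol, as 10 of 58735 genes. RNA was sequenced from HEK293T, a line derived from human embryonic kidney that expresses the large T antigen of SV40. Cells received 10 nM siRNA with Lipofectamine RNAiMAX and were collected after 36 h, with 3 libraries in each of 3 groups. Controls received Silencer Select Negative Control No. 2, and the other groups received a Silencer Select siRNA against PHF12 or against SUDS3, 1 siRNA per target. PHF12 and SUDS3 belong to SIN3 co-repressor complexes, which hold histone deacetylases. All cells grew in DMEM with FBS and GlutaMAX, and the labels name no added metal and no other genetic change. With 1 siRNA per target, effects through the target and effects of that siRNA on other transcripts cannot be told apart. Nothing in the labels shows that replicates came from separate cultures, and the p-values therefore measure only the spread between these libraries, which may be technical.

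Metallothioneins are small, cysteine-rich proteins that bind zinc, copper and cadmium in the cytosol. When free zinc rises, MTF1 binds metal response elements in promoters and raises transcription of metallothionein genes and of SLC30A1, which carries zinc out of the cell across the plasma membrane. The other exporters move zinc between the cytosol and compartments. SLC30A5 pairs with SLC30A6, and SLC30A7 pairs with itself, to load the early secretory pathway, where zinc-dependent ectoenzymes are assembled, and SLC30A9 moves zinc out of mitochondria.

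Promoters of the classical MTF1 targets are shown first, because metal response elements are what these genes are known for. The core of the element was searched as TGCACNC and TGCGCNC, on both strands, in the 250 bases before each RefSeq start site (GRCh38.p14). Capitals mark every match, each sequence runs 5′ to 3′ on the gene's strand, and a match on the opposite strand reads as the reverse complement of the core, for example GAGTGCA.
MT2A promoter, plus strand, chr16:56608334-56608583: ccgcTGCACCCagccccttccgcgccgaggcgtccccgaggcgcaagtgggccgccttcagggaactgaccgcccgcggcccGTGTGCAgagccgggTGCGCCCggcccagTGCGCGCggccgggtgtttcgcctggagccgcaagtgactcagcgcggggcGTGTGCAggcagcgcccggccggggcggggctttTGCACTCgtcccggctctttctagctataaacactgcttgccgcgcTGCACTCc
MT1X promoter, plus strand, chr16:56682220-56682469: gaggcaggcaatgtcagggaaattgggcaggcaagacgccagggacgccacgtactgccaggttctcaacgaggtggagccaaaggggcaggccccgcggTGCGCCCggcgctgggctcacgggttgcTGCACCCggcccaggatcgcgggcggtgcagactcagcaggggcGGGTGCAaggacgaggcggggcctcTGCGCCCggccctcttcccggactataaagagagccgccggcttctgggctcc
SLC30A1 promoter, minus strand, chr1:211579162-211579411: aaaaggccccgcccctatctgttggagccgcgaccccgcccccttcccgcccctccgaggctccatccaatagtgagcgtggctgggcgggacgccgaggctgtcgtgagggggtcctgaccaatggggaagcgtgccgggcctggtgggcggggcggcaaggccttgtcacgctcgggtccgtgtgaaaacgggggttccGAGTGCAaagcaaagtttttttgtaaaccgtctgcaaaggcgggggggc

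MT2A held 7 matches, MT1X held 4 and SLC30A1 held 1. Of the 35116 promoters searched, 24.8% held at least 1 match, 0.37% at least 4 and 0.0313% at least 7. The match in SLC30A1 is thus of a common kind, and the numbers in MT2A and MT1X are rare ones. The match nearest the start began 8 bases before it in MT2A, 53 bases in MT1X and 49 bases in SLC30A1. SLC30A6 also held 1 match, and no match was found in the windows of MTF1, SLC30A5, SLC30A7 and SLC30A9. The promoters of MT1E and MT1F were not analysed here. Among other metallothioneins, MT1H held 8 matches, a number reached by 0.0171% of promoters, and had no count in any library. Matches are runs of letters, and no factor's binding was measured in these libraries. Start sites differ between annotations: the RefSeq window of MT2A lies inside the gene as GENCODE 29 draws it, and that of SLC30A1 lies upstream of the GENCODE 29 gene, which ends at base 211578742.

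All 4 metallothioneins lie in the same cluster on chromosome 16 (GRCh38): MT2A at 56608199 to 56609497, MT1E at 56625475 to 56627112, MT1F at 56657694 to 56660698 and MT1X at 56682424 to 56684196, each on the plus strand. The remaining members are spread over 4 chromosomes. MTF1 (37809567 to 37859620, minus strand), SLC30A7 (100896076 to 100981753, plus strand) and SLC30A1 (211571568 to 211578742, minus strand) are on chromosome 1. SLC30A6 is on chromosome 2 (32165841 to 32224379), SLC30A9 on chromosome 4 (41990472 to 42090457) and SLC30A5 on chromosome 5 (69093646 to 69131069), each on the plus strand.

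Library totals ran from 37962926 to 50946148 counts. In the PHF12 knockdown PHF12 stood at 54.0% of its control level, and in the SUDS3 knockdown SUDS3 stood at 19.9%. Each target also moved with the other siRNA: PHF12 rose in the SUDS3 knockdown (log2 fold change 0.30, edgeR adjusted p = 7.19e-05) and SUDS3 fell in the PHF12 knockdown (-0.46, adjusted p = 6.83e-10). All 7 markers of the line that were looked for had enough counts to be tested, among them VIM, NEFM and KRT18. Of 12 markers of immune, liver, fibroblast, endothelial and differentiated tubule cells, 3 had enough counts to be tested and none of the 3 passed, while PTPRC, CD3E and UMOD had no count in any library. Of the counts above 0, 96.1% were multiples of 4, so that 1 sequenced fragment appears to be worth 4 counts. The low counts of the metallothioneins rest on correspondingly few fragments.

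Levels are given in 2 ways. For a gene across libraries they are TMM-scaled CPM, counts divided by the library total and brought to a common scale, and differences were tested with edgeR's quasi-likelihood F-test over 18088 genes with Benjamini-Hochberg adjustment, a gene being called at an adjusted p under 0.05. Between genes they must be set per length, and the deposited TPM could not serve for that. Across 9444 genes with at least 400 counts in every library, the length implied by count over TPM had a Spearman's rho of 0.00887 with the longest coding transcript; these are genes, not replicates. In controls, SLC30A5 had 112.2 CPM and a deposited TPM of 622, while SLC30A7 had 72.9 CPM and a deposited TPM of 8.34. The implied length of a gene was the same in every library, so the ratio of a gene's deposited TPM between libraries does not depend on it. The limma fits quoted below add a constant, the pseudocount, to the deposited TPM before taking logs. Their fold changes and calls therefore do depend on the implied length, most where the deposited TPM is low. In its place, counts per base of the longest coding transcript were scaled to the same total in every library, that of CPM, and are called length-scaled CPM.

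On the length-scaled level SLC30A9 and SLC30A5 led the set in controls. SLC30A9 stood at 61.2 ± 1.45 length-scaled CPM (SD, n = 3) and SLC30A5 at 59.1 ± 0.701, and their libraries overlapped. MT2A followed at 24.3 ± 2.31 and SLC30A6 at 23.8 ± 0.149, again with overlapping libraries. SLC30A7, at 21.2 ± 1.24, lay below SLC30A6 in every library and overlapped MT2A. The other members came lower, each below the one named before it in every library: SLC30A1 at 16.8 ± 0.999, MT1X at 12.3 ± 2.97, MTF1 at 6.78 ± 0.0705 and MT1F at 3.29 ± 0.874. The place of the metallothioneins depends on the length taken. With all annotated exons merged in place of the longest coding transcript, MT1X stood at 5.63 and MT1F at 1.81, and MT1X lay below MTF1, which stood at 10.1. MT2A, at 22.1, then lay below SLC30A6 at 33.7, SLC30A7 at 30.1 and SLC30A1 at 25.3.

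In the knockdowns the order of the members changed around SLC30A1. With SUDS3 siRNA its length-scaled level was 29.5 ± 0.404 (SD, n = 3), beside MT2A at 30.2 ± 7.43 and above SLC30A6 at 18.0 ± 0.634 and SLC30A7 at 18.8 ± 1.63. With merged exons the SUDS3 values were 44.5 for SLC30A1 and 27.5 for MT2A, so SLC30A1 then stood above MT2A. With PHF12 siRNA SLC30A7 stood at 13.6 ± 1.38, against 21.2 in controls, and overlapped SLC30A1 at 14.3 ± 1.35. MT1X, at 14.7 ± 3.58, also overlapped SLC30A1. With merged exons MT1X stood at 6.73 with PHF12 siRNA and 8.64 with SUDS3 siRNA, below SLC30A7 at 19.4 and 26.7. SLC30A5 and SLC30A9 stayed at the top of the set in each group, and MT1F was the lowest detected member in each.

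**Figure D1:**
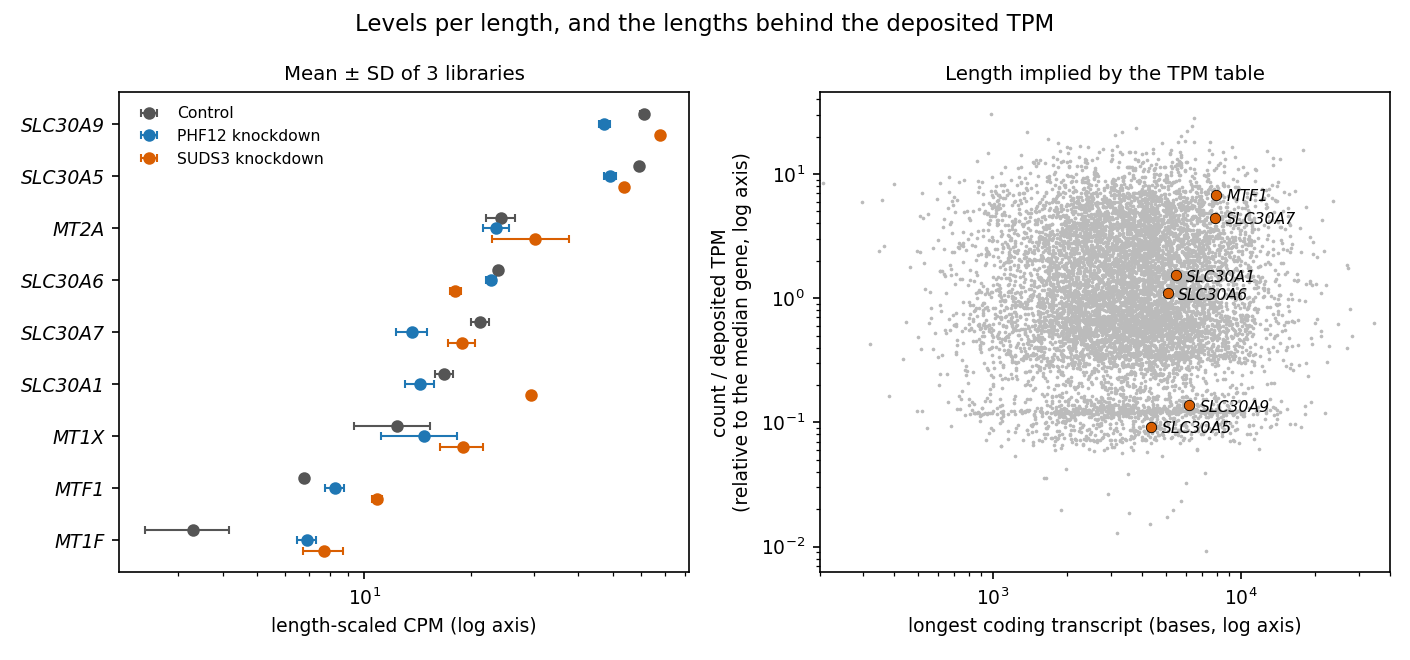
Left, length-scaled level of the 9 detected members in length-scaled CPM on a log axis, as mean ± SD of 3 libraries in control (grey), PHF12 knockdown (blue) and SUDS3 knockdown (orange) cells; SLC30A9 and SLC30A5 lie at the right, and SLC30A1 moves from 16.8 to 29.5 with SUDS3 siRNA. Right, the length implied by the deposited TPM (count over TPM, relative to the median gene) against the longest coding transcript for 9444 genes (grey) and the members among them (orange), both on log axes; the cloud shows no relation, with SLC30A5 and SLC30A9 near the bottom.

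Of the 10 members, 9 passed the low-count filter and were tested, and MT1E had no count in any of the 9 libraries. With PHF12 siRNA 6 of the 9 were called against control, where 31.9% of all tested genes were: MT1F and MTF1 rose, and SLC30A1, SLC30A5, SLC30A7 and SLC30A9 fell. With SUDS3 siRNA 8 of the 9 were called, where 38.7% of all tested genes were: MT1F, MT1X, MTF1, SLC30A1 and SLC30A9 rose, and SLC30A5, SLC30A6 and SLC30A7 fell. Between the knockdowns 5 of the 9 were called, where 43.9% of all tested genes were: MTF1, SLC30A1, SLC30A7 and SLC30A9 were higher with SUDS3 siRNA and SLC30A6 was lower. The median log2 fold change of the 9 was -0.05 with PHF12 siRNA and 0.28 with SUDS3 siRNA, against -0.00 and -0.02 for all tested genes. By direction, 14.8% of all tested genes rose and 17.1% fell with PHF12 siRNA, 19.6% rose and 19.2% fell with SUDS3 siRNA, and 22.7% were higher and 21.1% lower with SUDS3 than with PHF12 siRNA. That split depends on scaling: rises were 46.4% of the PHF12 calls with TMM and 56.9% with upper-quartile scaling, and 51.8% and 41.2% between the knockdowns. Both knockdowns share the same 3 control libraries, so their values are set side by side and were compared directly in the third contrast. Groups of libraries that did not overlap, named below for several members, were common. Of all tested genes, 42.1% had them with PHF12 siRNA, 46.6% with SUDS3 siRNA and 51.8% between the knockdowns. In bulk RNA, fewer cells with a transcript and less of it per cell cannot be told apart.

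**Figure D2:**
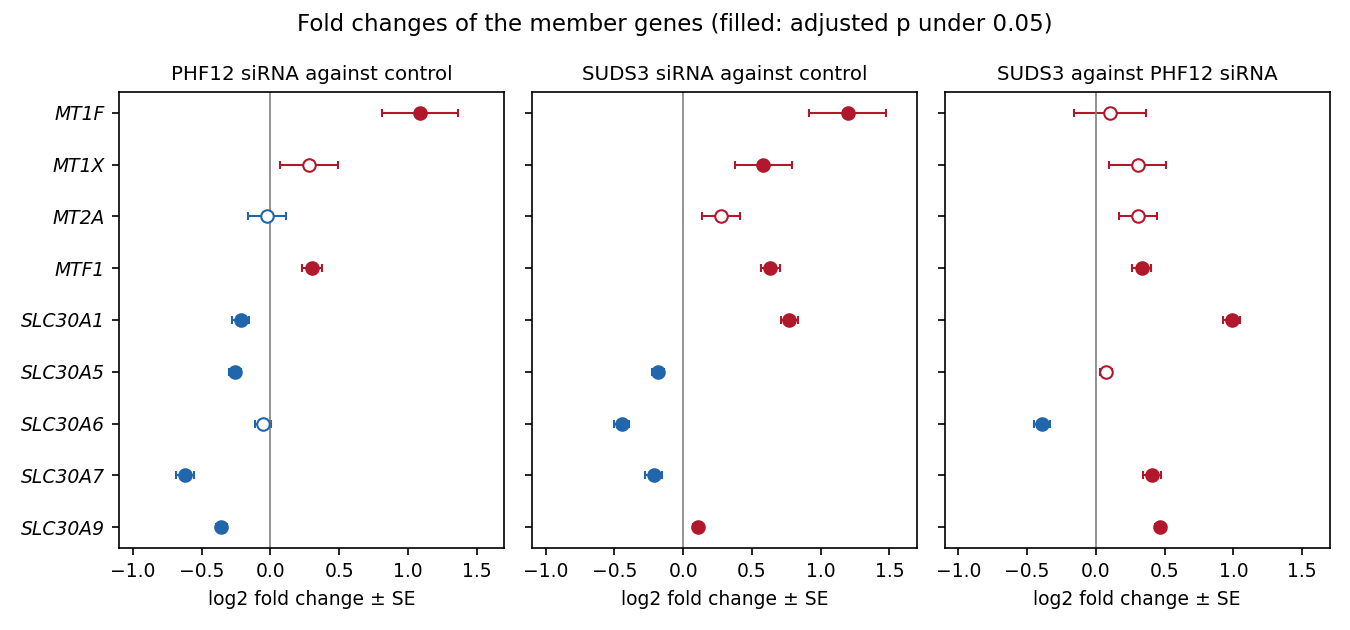
Log2 fold change ± SE of the 9 tested members in the 3 contrasts, red for higher and blue for lower, filled where the adjusted p was under 0.05 and open otherwise. MTF1 and MT1F lie right of 0 in both knockdowns, and SLC30A1 and SLC30A9 lie on opposite sides of 0 in the knockdowns.

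MT1F had the largest fold change of the 3 metallothioneins of the set that were tested. Its level was 0.914, 0.778 and 1.27 CPM in the controls, 2.08, 1.98 and 2.22 CPM with PHF12 siRNA and 2.38, 1.92 and 2.45 CPM with SUDS3 siRNA. Every knockdown library lay above every control, and the knockdowns overlapped each other. MT1F rose with PHF12 siRNA by a log2 fold change of 1.09 (SE 0.277, adjusted p = 0.00205) and with SUDS3 siRNA by 1.20 (SE 0.277, adjusted p = 0.000624). The knockdowns differed by 0.10 (SE 0.261, adjusted p = 0.791), which was not called. These values rest on 36 to 48 counts per control library and 92 to 104 per knockdown library, which at 4 counts per fragment is 179 fragments over all 9. On the log2(TPM + 1) scale, where the pseudocount of 1 exceeds the low deposited TPM of MT1F, limma gave 0.30 and 0.35 in place of 1.09 and 1.20, both still called.

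MT1X, another metal-induced isoform, was called with SUDS3 siRNA and not with PHF12 siRNA. It stood at 2.29, 2.77 and 3.59 CPM in controls, at 3.83, 4.11 and 2.50 CPM with PHF12 siRNA and at 4.77, 4.50 and 3.63 CPM with SUDS3 siRNA. The PHF12 knockdown overlapped the controls, and the lowest SUDS3 library lay just above the highest control. MT1X rose with SUDS3 siRNA by 0.58 (log2, SE 0.210, adjusted p = 0.0253), and its difference was 0.28 with PHF12 siRNA (SE 0.211, adjusted p = 0.355). The direct difference between the knockdowns was 0.30 (SE 0.206, adjusted p = 0.251), so a difference in response was not shown. The SUDS3 call did not last without control replicate 1 (log2 fold change 0.44, adjusted p = 0.144) or control replicate 2 (0.56, adjusted p = 0.0796). Nor did it last without SUDS3 replicate 1 (0.50, adjusted p = 0.105) or SUDS3 replicate 2 (0.56, adjusted p = 0.0655). Of the 10 alternatives other than leaving out a library, 2 also lost it, among them limma on log2(TPM + 1) (0.44, adjusted p = 0.0676).

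MT2A, the most abundant metallothionein here, was not called in any contrast. Its level was 8.59, 7.44 and 8.87 CPM in controls, 8.40, 8.70 and 7.32 CPM with PHF12 siRNA and 12.84, 9.26 and 8.04 CPM with SUDS3 siRNA. All groups overlapped, and SUDS3 replicate 1 stood above the other 8 libraries. The log2 differences were -0.03 with PHF12 siRNA (SE 0.140, adjusted p = 0.928) and 0.28 with SUDS3 siRNA (SE 0.139, adjusted p = 0.116). Replicate choice decided the second value: without SUDS3 replicate 3 it was 0.41 (adjusted p = 0.0229), and without SUDS3 replicate 1 it was 0.06 (adjusted p = 0.809). The difference between the knockdowns was 0.30 (SE 0.138, adjusted p = 0.0739), and without SUDS3 replicate 3 it was 0.44 (adjusted p = 0.0133).

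Summed over the metallothioneins, the level was 12.2 ± 1.41 CPM in controls, 13.7 ± 1.47 CPM with PHF12 siRNA and 16.6 ± 3.04 CPM with SUDS3 siRNA (SD, n = 3), with no test of the sum. MT2A made up 56.9% to 72.9% of it in each library. The MT2A mean was 8.30 CPM in controls, 8.14 CPM with PHF12 siRNA and 10.05 CPM with SUDS3 siRNA. The higher sum with PHF12 siRNA therefore did not come from MT2A. MT1E was at 0 throughout, and 3 fragments, or 12 counts, set a floor of 0.236 to 0.316 CPM of the whole library. Of 9 other metallothionein genes, 8 had no count in any library. The exception, MT1G, stood at 0.333 ± 0.222, 0.542 ± 0.204 and 0.795 ± 0.403 CPM in the 3 groups, near that floor, and was not called (adjusted p = 0.447 and 0.102 against control), although without control replicate 1 the SUDS3 difference reached 1.78 on the log2 scale (adjusted p = 0.0438). These genes are near-identical copies, and the sources used here do not state how reads that match several of them were counted. The pseudogene MT1XP1 had a mean count of 13.3 per library beside 159.6 for MT1X, and MT2P1 had none. The transcript AC026461.1 covers 18.1% of the MT1X exonic bases on the same strand and had no counts.

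MTF1, the factor that reads zinc, rose in both knockdowns and more with SUDS3 siRNA. It stood at 23.9, 23.3 and 23.4 CPM in controls, at 31.0, 27.5 and 28.4 CPM with PHF12 siRNA and at 35.4, 36.5 and 37.7 CPM with SUDS3 siRNA. The groups were fully separated, in that order. The log2 fold change was 0.30 with PHF12 siRNA (SE 0.0703, adjusted p = 0.000846) and 0.63 with SUDS3 siRNA (SE 0.0699, adjusted p = 2.93e-09). The SUDS3 knockdown exceeded the PHF12 knockdown by 0.33 (SE 0.0687, adjusted p = 0.000114), so the size of the rise differed between the siRNAs.

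SLC30A1, which exports zinc across the plasma membrane, had the largest difference between the knockdowns of the 9. Controls held it at 37.8, 41.0 and 41.3 CPM, the PHF12 knockdown at 33.9, 31.7 and 37.9 CPM and the SUDS3 knockdown at 67.4, 68.5 and 68.9 CPM. All SUDS3 libraries lay far above the others, while the highest PHF12 library reached into the range of the controls. With SUDS3 siRNA SLC30A1 rose by 0.77 (log2, SE 0.0610, adjusted p = 9.87e-13), and it stood 0.99 above the PHF12 knockdown (SE 0.0612, adjusted p = 5.78e-16). Its fall of -0.21 with PHF12 siRNA (SE 0.0624, adjusted p = 0.00696) was small. That call did not last without PHF12 replicate 2 (-0.16, adjusted p = 0.0801). Of the 10 alternatives other than leaving out a library, 2 also lost it, among them limma on log2(TPM + 1) (-0.19, adjusted p = 0.0507).

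The exporters of the early secretory pathway did not rise in either knockdown. SLC30A5 stood at 114.8, 112.2 and 109.5 CPM in controls, at 90.2, 96.9 and 94.9 CPM with PHF12 siRNA and at 99.8, 98.9 and 97.8 CPM with SUDS3 siRNA. Each knockdown library lay below each control. SLC30A5 fell by 0.25 on the log2 scale with PHF12 siRNA (SE 0.0423, adjusted p = 8.39e-06) and fell by 0.18 with SUDS3 siRNA (SE 0.0423, adjusted p = 0.000618). The knockdowns differed by 0.07 (SE 0.0424, adjusted p = 0.179), which was not called. An antisense gene, AC010273.1, covers 9.20% of the SLC30A5 exonic bases and had a mean count of 4.44 per library, beside 4531 for SLC30A5; the sources do not state the strand setting of the counting.

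SLC30A6, the partner of SLC30A5, fell with SUDS3 siRNA. Its level was 53.7, 52.8 and 51.8 CPM in controls, 49.9, 52.7 and 49.9 CPM with PHF12 siRNA and 38.3, 40.2 and 37.7 CPM with SUDS3 siRNA. The PHF12 libraries overlapped the controls, and the SUDS3 libraries lay below all others. The log2 fold change was -0.45 with SUDS3 siRNA (SE 0.0562, adjusted p = 4.86e-08) and -0.05 with PHF12 siRNA (SE 0.0553, adjusted p = 0.530). The direct difference between the knockdowns was -0.39 (SE 0.0561, adjusted p = 3.03e-07). Within the pair, SLC30A5 was thus lower with either siRNA and SLC30A6 was lower with SUDS3 siRNA, by tests of each gene.

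SLC30A7, which also loads the secretory pathway, was lowest with PHF12 siRNA. It stood at 69.2, 73.6 and 75.9 CPM in controls, at 43.4, 52.7 and 45.9 CPM with PHF12 siRNA and at 68.9, 61.7 and 57.9 CPM with SUDS3 siRNA. All PHF12 libraries lay below all others, and the highest SUDS3 library came just under the lowest control. SLC30A7 fell by 0.62 on the log2 scale with PHF12 siRNA (SE 0.0634, adjusted p = 5.04e-10), and it stood 0.41 higher with SUDS3 siRNA than with PHF12 siRNA (SE 0.0636, adjusted p = 1.55e-06). Its change with SUDS3 siRNA was -0.21 (SE 0.0627, adjusted p = 0.00600). That call did not last without SUDS3 replicate 3 (-0.16, adjusted p = 0.0681). Of the 10 alternatives other than leaving out a library, 2 also lost it, among them limma on log2(TPM + 1) (-0.18, adjusted p = 0.125).

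SLC30A9, the mitochondrial zinc exporter, moved in opposite directions. Controls held it at 168.9, 161.3 and 166.6 CPM, the PHF12 knockdown at 124.3, 132.6 and 131.4 CPM and the SUDS3 knockdown at 182.5, 179.0 and 175.0 CPM. The groups did not overlap, with PHF12 libraries lowest and SUDS3 libraries highest. SLC30A9 fell by 0.36 on the log2 scale with PHF12 siRNA (SE 0.0375, adjusted p = 1.07e-09), and the knockdowns differed by 0.47 (SE 0.0374, adjusted p = 5.81e-13). Its rise of 0.11 with SUDS3 siRNA (SE 0.0372, adjusted p = 0.0166) was slight. That call did not last with upper-quartile scaling (0.08, adjusted p = 0.0792), without control replicate 2 (0.09, adjusted p = 0.103) or without SUDS3 replicate 1 (0.09, adjusted p = 0.0997).

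**Figure D3:**
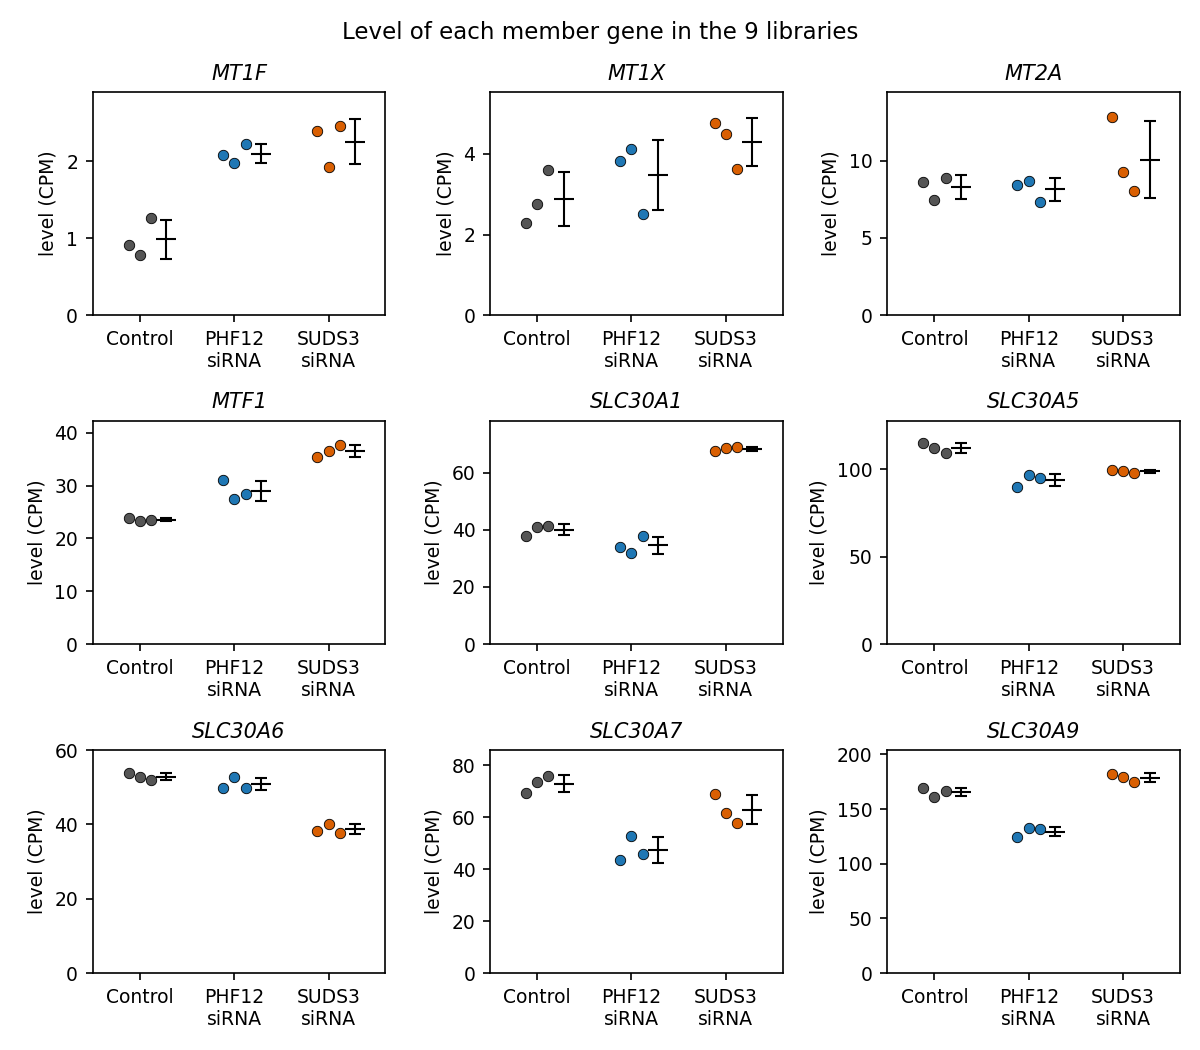
Level of each detected member in CPM, with 1 point per library (grey control, blue PHF12 siRNA, orange SUDS3 siRNA), bars showing mean ± SD of 3 libraries and axes starting at 0. MTF1 steps up from control to PHF12 to SUDS3 siRNA, SLC30A1 stands at 67.4 to 68.9 with SUDS3 siRNA, and the MT1X and MT2A groups spread widely.

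Genes whose level most resembled that of 4 members over the 9 libraries were picked by Pearson's r of log2 CPM among 11729 protein-coding genes, as a description. For SLC30A1 these were DAAM1, a formin regulator of actin (r = 0.994), the myosin gene MYO1E (r = 0.993) and the catenin gene CTNNA1 (r = 0.993). For MTF1 they were the retromer subunit VPS26B (r = 0.988), the kinesin KIF3B (r = 0.984) and FLII (r = 0.984). For MT1X they were SSSCA1 (r = 0.926), P2RY11 (r = 0.924) and CEP70 (r = 0.904), and for MT2A THEMIS2 (r = 0.902), NSMCE1 (r = 0.895) and TMEM97 (r = 0.894). None of these 12 is a metallothionein or a zinc transporter. The 9 libraries fall into 3 groups, so r largely follows the group means.

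The zinc importers of the SLC39 family, which bring zinc into the cytosol, held the largest changes among the zinc transporters tested with PHF12 siRNA, in SLC39A6 and SLC39A10. Of 14 importers 11 were tested; with PHF12 siRNA 6 fell and 1 rose, where 17.1% of all tested genes fell and 14.8% rose, and the median log2 fold change was -0.19 against -0.00. SLC39A6, a plasma-membrane importer, went from 237.0 ± 4.83 CPM in controls to 66.1 ± 4.89 CPM with PHF12 siRNA (-1.84 on the log2 scale, adjusted p = 8.38e-28) and to 126.2 ± 3.40 CPM with SUDS3 siRNA (-0.91, adjusted p = 3.97e-19). Its close relative SLC39A10 fell by 1.24 on the log2 scale with PHF12 siRNA (adjusted p = 1.85e-19) and by 0.36 with SUDS3 siRNA (adjusted p = 2.02e-06). SLC39A14 fell with PHF12 siRNA (-0.38, adjusted p = 4.66e-09) and was not called with SUDS3 siRNA (-0.01, adjusted p = 0.908). SLC39A9 fell with PHF12 siRNA (-0.27, adjusted p = 1.24e-05) and rose with SUDS3 siRNA (0.38, adjusted p = 1.98e-08).

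With SUDS3 siRNA 3 of the 11 importers rose and 2 fell, where 38.7% of all tested genes were called, so this share is near the background; the median was -0.01. Between the knockdowns 7 of the 11 were higher with SUDS3 siRNA and 0 lower, where 22.7% of all tested genes were higher and 21.1% lower, with a median of 0.26, against -0.01 for all tested genes. SLC39A7, which releases zinc from the endoplasmic reticulum, was among them (0.23, adjusted p = 5.97e-07).

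Of 6 other zinc exporters 4 were tested, with control means from 1.19 CPM for SLC30A10 to 13.1 CPM for SLC30A4. TMEM163, a vesicular zinc exporter, fell with SUDS3 siRNA from 2.57 ± 0.526 to 1.08 ± 0.201 CPM (log2 fold change -1.24, adjusted p = 0.000760). SLC30A3 and SLC30A4, which load vesicles, rose with SUDS3 siRNA by 0.34 (adjusted p = 0.0402) and 0.32 (adjusted p = 0.0160), and SLC30A10 rose with PHF12 siRNA by 0.80 (adjusted p = 0.0427). The last 3 calls rest on few libraries: SLC30A3 was called in 1 of the 6 fits that leave out a control or SUDS3 library, and without control replicate 3 its value was 0.21 (adjusted p = 0.274). SLC30A4 lost its call without control replicate 1 (0.20, adjusted p = 0.173) and without SUDS3 replicate 1 (0.24, adjusted p = 0.121). SLC30A10 was called in 1 of the 6 fits that leave out a control or PHF12 library, with values from 0.66 to 1.05. With SUDS3 against PHF12 siRNA, the log2 difference was 0.68 for SLC30A3 (adjusted p = 6.20e-05) and -1.13 for SLC30A10 (adjusted p = 0.00286). Both of these calls held in all 9 fits that leave out a library and in the 10 other alternatives. SLC30A4 (0.20, adjusted p = 0.123) and TMEM163 (-0.62, adjusted p = 0.0863) were not called between the knockdowns.

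Zinc enzymes that mature in the secretory pathway, where SLC30A5, SLC30A6 and SLC30A7 deliver the metal, were called in numbers near the background. Of 14 such genes 10 were tested, and in each knockdown 2 rose and 3 fell, where 31.9% and 38.7% of all tested genes were called. CA12, a membrane carbonic anhydrase, fell by 1.72 with PHF12 siRNA (adjusted p = 5.58e-10) and by 0.98 with SUDS3 siRNA (adjusted p = 1.35e-05). The sheddase ADAM17 fell with PHF12 siRNA (-0.96, adjusted p = 1.99e-16) and stood at 0.16 with SUDS3 siRNA (adjusted p = 0.0172), a call lost without control replicate 1 (0.14, adjusted p = 0.0773), without SUDS3 replicate 3 (0.13, adjusted p = 0.0907) and with upper-quartile scaling (0.13, adjusted p = 0.0524). MMP2, a matrix metalloprotease, rose with PHF12 siRNA (0.77, adjusted p = 0.00131) and fell with SUDS3 siRNA (-1.01, adjusted p = 9.22e-05). ALPL, the alkaline phosphatase that depends on zinc from these exporters, rose with PHF12 siRNA from 4.10 ± 0.401 to 6.30 ± 0.392 CPM (0.62, adjusted p = 0.00210) and was not called with SUDS3 siRNA (0.34, adjusted p = 0.0945); it was chosen after its values were seen. ADAM10, another sheddase, rose with SUDS3 siRNA (0.29, adjusted p = 1.99e-05), and ENPP1, a zinc phosphodiesterase, fell with PHF12 siRNA (-0.29, adjusted p = 0.000654). These are transcript levels, and enzyme activity was not measured.

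**Figure D4:**
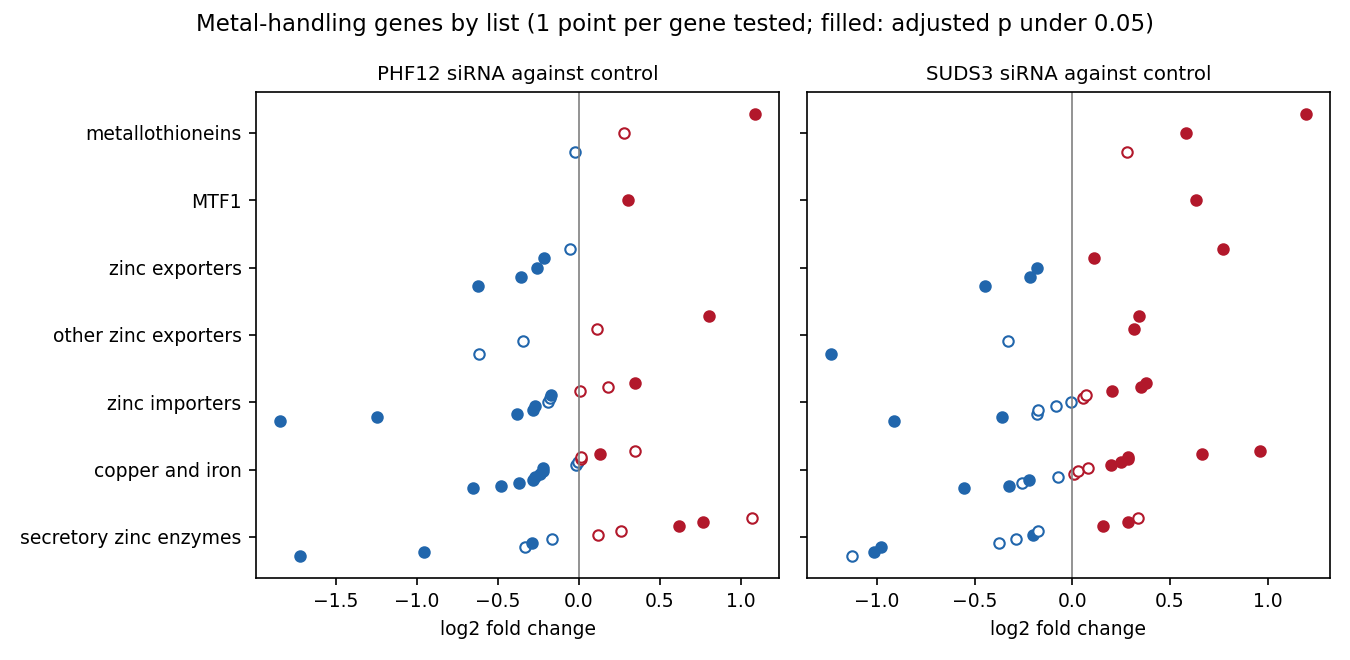
Log2 fold change of each tested gene by list, with PHF12 siRNA against control on the left and SUDS3 siRNA on the right, filled where the adjusted p was under 0.05. Zinc importers reach -1.84 at the left with PHF12 siRNA, and copper and iron genes spread to both sides of 0 with SUDS3 siRNA, up to 0.96.

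Short siRNA-like matches were looked up in the longest annotated 3′ UTR of the members, since an siRNA can act on transcripts that match its seed. The hexamers, AATCAC set beside the PHF12 siRNA and TACATT beside the SUDS3 siRNA, come from an earlier scan of these same fold changes. They therefore support nothing, and they were not checked against the sequences of the siRNAs. AATCAC occurred 2 times in SLC30A7 and in SLC30A9, 1 time in MTF1, SLC30A1 and SLC30A6, and was not found in the others. TACATT occurred 6 times in SLC30A7, 4 times in SLC30A1 and SLC30A6, and 1 time in SLC30A9 and MT1F. Of 13770 genes with a 3′ UTR, 30.7% held AATCAC and 40.9% held TACATT, and of those with more than 3000 bases, 67.1% and 79.3% did. The UTRs of MTF1, SLC30A1, SLC30A6, SLC30A7 and SLC30A9 run from 3666 to 6580 bases, so matches in them are common ones. Whether either hexamer is a seed of its siRNA was not tested, and neither was the part of seed matches in the members' changes.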

How the data were processed

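RNA abundance was measured in 9 libraries. Per the submitters' processing notes, the tools were Trimmomatic 0.36, HISAT2 2.1.0 and HTSeq, with build GRCh38, and the libraries were stranded poly-A libraries per the labels' protocols. The authors deposited a table of counts per gene (58735 genes) and a table of TPM (58734 genes). The sources used here do not state the strand setting or the lengths behind TPM. Counts were taken as deposited. Low genes were removed per group (filterByExpr, minimum count 10), TMM factors were computed, and edgeR 4.0.16 (R 4.3.3) gave a robust quasi-likelihood fit with a mean for each of the 3 groups of 3 libraries. F-tests of 3 contrasts were adjusted by Benjamini-Hochberg over 18088 genes, with a threshold of 0.05, and SE was derived from the F-statistic. The fit was tested on simulated data. The alternatives were other scalings, filters, DESeq2 1.42.0, limma 3.58.1 on log2 deposited TPM, counts divided by 4, a replicate block and leaving out each library. TPM had been planned for levels between genes, and length-scaled counts replaced it once the implied lengths had been seen. The members and gene lists were chosen with earlier results of these data known. Named genes are all members, both targets, at most 5 called genes with the smallest adjusted p per list, and the 3 genes most alike each of 4 members. MT1G, MT1H, ALPL, ATP7B, HMOX1, FTH1, FTL and the example markers fall outside this rule and were named after their values were seen. Floors cover counting error only, and each ± on a level is the SD of 3 libraries. SCO2, which has 2 identifiers, was left out of its list.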

Additional observations from a re-analysis of the deposited data

How the results depend on the processing

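Counts of called members and of called genes stayed within 1.5 times their values under every alternative run. Called members numbered 5 or 6 with PHF12 siRNA, 6 to 8 with SUDS3 siRNA and 5 or 6 between the knockdowns. Leaving out a library gave 4918 to 5800 called genes with PHF12 siRNA, 6100 to 6943 with SUDS3 siRNA and 7304 to 7983 between the knockdowns. The PHF12 difference of MT2A, -0.03 on the log2 scale, changed sign with upper-quartile scaling (0.014) and without control replicate 1 (0.0018), control replicate 3 (0.03) or PHF12 replicate 3 (0.045), and ranged from -0.10 to 0.045 over the fits that leave out a library; none of these was called, and the cause was not tested. Replicate numbers did not pair the libraries: same-numbered libraries of different groups had correlations of -0.0158 to 0.0304 in their deviations from the group means. With the replicate number as a block, 5848, 7073 and 7981 genes were called, against 5776, 7004 and 7937, and the members' calls were the same. The small rises of SLC30A3, SLC30A4 and SLC30A10 also missed the threshold with upper-quartile scaling (SLC30A3, adjusted p = 0.0629), limma on log2(TPM + 1) (SLC30A3, 0.116, and SLC30A4, 0.0504), limma on log2(TPM + 0.1) (SLC30A3, 0.139) and no low-count filter (SLC30A10, 0.0697). Calls lost with limma, here and for the members above, can depend in part on the lengths behind the deposited TPM, through the pseudocount. Few fragments limit MT1F, MT1X and MT2A, with 179, 359 and 887 over all libraries.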

Other observations

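Copper and iron genes, which share carriers and metal-binding proteins with zinc, were also looked up, 14 genes in all and each of them tested. With PHF12 siRNA 8 fell and 1 rose, where 17.1% of all tested genes fell and 14.8% rose, and the median log2 fold change was -0.22 against -0.00. With SUDS3 siRNA 6 rose and 3 fell, where 19.6% of all tested genes rose and 19.2% fell, and the median was 0.05 against -0.02. The 4 copper carriers listed, SLC31A1, SLC31A2, ATP7A and ATP7B, fell with PHF12 siRNA and rose with SUDS3 siRNA. SLC31A2, a vesicular copper transporter, went from 6.03 ± 0.48 CPM in controls to 3.84 ± 0.30 CPM with PHF12 siRNA (log2 fold change -0.65, edgeR adjusted p = 0.000306) and 11.8 ± 0.96 CPM with SUDS3 siRNA (0.96, adjusted p = 2.54e-07). The transferrin receptor gene TFRC, which brings iron into the cell, fell with PHF12 siRNA (-0.22, adjusted p = 7.50e-07) and rose with SUDS3 siRNA (0.29, adjusted p = 3.36e-09). ATP7A, a copper-exporting ATPase, rose with SUDS3 siRNA (0.66, adjusted p = 1.71e-07). The call of its fall with PHF12 siRNA (-0.28, adjusted p = 0.0164) was lost without control replicate 2 (-0.25, adjusted p = 0.0745) or PHF12 replicate 2 (-0.25, adjusted p = 0.0707). That call was also lost in 2 of the 10 alternatives other than leaving out a library. The PHF12 call of ATP7B (-0.22, adjusted p = 0.0211) was lost without control replicate 2 (-0.20, adjusted p = 0.0813), PHF12 replicate 1 (-0.17, adjusted p = 0.118) or PHF12 replicate 2 (-0.20, adjusted p = 0.0791). It was also lost in 1 of the 10 alternatives other than leaving out a library. SLC31A1, the plasma-membrane copper importer, fell with PHF12 siRNA (-0.27, adjusted p = 1.95e-05) and rose with SUDS3 siRNA (0.20, adjusted p = 0.000918). HMOX1, the heme-degrading enzyme whose gene is also induced by heavy metals, fell in both (-0.48, adjusted p = 6.49e-08, and -0.55, adjusted p = 2.97e-09). SCO1, a copper chaperone of mitochondria, fell with PHF12 siRNA (-0.37, adjusted p = 9.04e-09). The ferritin genes FTH1 and FTL stayed within 0.03 of control on the log2 scale in both knockdowns. ATP7B, HMOX1, FTH1 and FTL were chosen after their values were seen.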
